A study of Homo sapiens with 8 samples.

Results

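Genomic imprinting marks genes in the egg or the sperm so that only the copy from 1 parent is read afterwards. The mark is DNA methylation at CG dinucleotides of control regions, copied at each cell division by DNMT1, and it lies either over a promoter, which it silences, or over an insulator, which sets which of several genes an enhancer reaches. Decitabine, a deoxycytidine analogue, is built into replicating DNA and traps DNA methyltransferases, so imprinted genes are natural genes to inspect under it: depending on the locus, loss of the mark can turn on a silent copy or turn off an active one. The 10 genes described here, of 60240 in the deposited table, were taken by symbol: the paternally expressed PLAGL1, MEST, PEG10, PEG3, NNAT, L3MBTL1 and ZDBF2, the maternally expressed non-coding RNAs MEG3 and H19, and GNAS, whose transcripts are maternal, paternal or read from both copies. The rule is the list of symbols, with no threshold on their values.

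All cells were WT HL-60, a line from a human acute promyelocytic leukaemia, kept for 72 h after seeding in duplicate wells at 100000 cells/mL. The 4 groups of 2 libraries received DMSO (the solvent), decitabine at 100 nM on each of 3 days, RG3039 at 2 µM once at the start, or both drugs (the combination). RG3039 inhibits DcpS, the scavenger decapping enzyme that clears the cap left by mRNA decay. The design asks how expression differs between these treatments. Values are the deposited normalised read counts of 3′ tags. They add up both alleles and every start site that shares a 3′ end, so they hold no allele information and no DNA methylation was measured.

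The estimated depth was 20711813 to 40948112 reads per library, and 1 read was worth 0.702 to 1.51 normalised counts. Each comparison tested 17534 genes with limma on log2(value + 1), and a gene was called at an adjusted p under 0.05. Folds are on that scale, and for low genes they depend on the pseudocount. With 2 wells a group the p-values measure only the spread between these samples, which may be technical. All 9 HL-60 markers were tested. MPO, CTSG, AZU1 and PRTN3, which encode granule proteins, were lower in all 4 libraries with RG3039 than in all 4 without. ELANE was lower in the combination only, CEBPE and MS4A3 were higher in all 6 treated libraries than in DMSO, and SPI1 and CD33 overlapped between the libraries with and without RG3039. The summed value of 3 T cell markers was 3.01 to 13.5 in DMSO and RG3039. It was 26.9 to 61.6 in decitabine and 104 to 210 in the combination. That of 3 B cell markers was 27.2 to 37.8 in DMSO and 29.6 to 93.1 in RG3039. It was 101 to 121 in decitabine and 146 to 161 in the combination. That of 4 epithelial markers, mostly KRT8 and KRT18, was 317 to 813 and, in the combination, 1188 to 1688. EPCAM, another of the 4, was 24.1 and 13.3 in the combination, below the 40.5 and 24.9 of decitabine. The platelet sum was lower with RG3039. The erythroid, fibroblast and neuroendocrine sums of the combination overlapped those of other groups. The part of these markers in the results was not tested. The placental markers CGA, PSG1 and KISS1 were at 0 in all 8 libraries, which bears on H19 and PEG10, genes of high expression in placenta. Less RNA per cell and fewer cells of a type cannot be told apart in bulk samples.

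The sequences below are upstream of annotated starts of PLAGL1 and MEST, which were called, and of ZDBF2, which was not. No sequence of GNAS, also called, is printed. The sequences are shown because CG, in capitals, is the dinucleotide that carries the imprint and on which decitabine acts. They are RefSeq sequences on GRCh38.p14, 5′ to 3′ on the gene's strand, cut back to the bases that lie in no annotated exon. RefSeq promoters were found for 7 of the 10 genes, with 24 starts, and not for PEG10, PEG3 and NNAT. The outer PLAGL1 start is, as background, read from both copies of the gene, and the inner start, shared with the non-coding HYMAI, lies in the region methylated on the maternal copy.
PLAGL1 outer start, chr6:144064600-144064849, minus strand: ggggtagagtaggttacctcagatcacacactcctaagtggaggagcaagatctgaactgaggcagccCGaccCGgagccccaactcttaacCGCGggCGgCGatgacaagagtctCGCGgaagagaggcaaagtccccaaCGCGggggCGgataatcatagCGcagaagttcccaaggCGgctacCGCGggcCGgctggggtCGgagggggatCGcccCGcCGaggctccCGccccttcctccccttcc
PLAGL1 inner start, chr6:144008431-144008509, minus strand: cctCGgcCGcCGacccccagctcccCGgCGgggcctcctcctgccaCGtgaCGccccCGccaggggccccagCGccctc
MEST inner start, chr7:130491808-130492057, plus strand: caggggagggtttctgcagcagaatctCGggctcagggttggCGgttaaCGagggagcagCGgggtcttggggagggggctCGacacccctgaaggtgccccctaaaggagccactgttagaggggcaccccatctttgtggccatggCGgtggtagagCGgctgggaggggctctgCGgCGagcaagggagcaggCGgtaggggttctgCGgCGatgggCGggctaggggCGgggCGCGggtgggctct
ZDBF2 outer start, chr2:206274413-206274662, plus strand: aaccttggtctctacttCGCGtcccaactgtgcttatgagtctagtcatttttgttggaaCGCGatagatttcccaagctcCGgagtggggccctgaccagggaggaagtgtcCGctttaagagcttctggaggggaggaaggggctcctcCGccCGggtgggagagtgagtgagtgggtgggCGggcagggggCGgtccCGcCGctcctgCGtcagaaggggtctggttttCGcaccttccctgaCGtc

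In the whole 250-base window before each start, the outer PLAGL1 start held 21 CG and the inner one 32. The median over 35116 starts was 11, and 9.52% of all starts held at least 32. The MEST window shown held 16 CG, and the 5 MEST starts from 9 to 20. The ZDBF2 window shown held 15, a count that 42.9% of all starts reached, and the window of its second start, most of it exonic, 42, reached by 1.38%. A GNAS start at position 58889180 of chromosome 20 held 33, a count that 8.15% of starts reached. Starts of 1 gene could differ widely: the 5 PLAGL1 starts held from 1 to 32 CG. The 3′ tags do not say which of these starts a transcript came from. The largest set of annotated transcripts that end within 500 bases of the 3′ end of 1 of them was counted for each gene. It held 13 of 27 for PLAGL1, 8 of 17 for MEST, 20 of 58 for GNAS and 4 of 11 for ZDBF2.

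Decitabine alone moved no imprinted gene past the threshold. None of the 9 tested genes was called against DMSO, where 2.14% of all genes were, and 2 of the 9, H19 and GNAS, had an unadjusted p under 0.05 (limma). For a gene read from 1 copy only, reading both would double the level, a log2 change of 1. The 95% interval of the change lay wholly below that for 4 genes: PLAGL1 (-1.31 to 0.57), MEST (-0.97 to 0.37), GNAS (-0.87 to -0.01) and MEG3 (-1.84 to 0.92). For the other 5, H19, L3MBTL1, PEG3, PEG10 and ZDBF2, the interval reached beyond a doubling. Their upper bounds ran from 1.11 for L3MBTL1 to 4.96 for PEG10, so a doubling is within these intervals. Which copies were read in DMSO was not measured, and the totals of PLAGL1 and GNAS can hold transcripts read from both copies. An interval below a doubling therefore cannot decide whether a silent copy was turned on, which was not tested.

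The changes from DMSO that passed the threshold were decreases, in PLAGL1, MEST and GNAS. Those of MEST and GNAS passed only in the combination, which holds both drugs. The GNAS values of libraries with RG3039 (4308 to 6657) overlapped those of libraries without it (5649 to 10069). RG3039 alone lowered PLAGL1 (1 of 9 called, against 8.12% of all genes), and the combination lowered PLAGL1, MEST and GNAS (3 of 9, against 24.1% of all genes). None of the 9 tested genes was called higher in a comparison with DMSO, which does not show that none rose. Under the combination 5 of the 9 had a positive log2 change, the largest 4.06 for PEG10 (limma adjusted p = 0.064). The median log2 fold change of the 9 genes under the combination was 0.02, against 0.04 over all genes tested. A share of 3 in 9 is to be read against a combination that changed about as large a part of all genes.

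**Figure D1:**
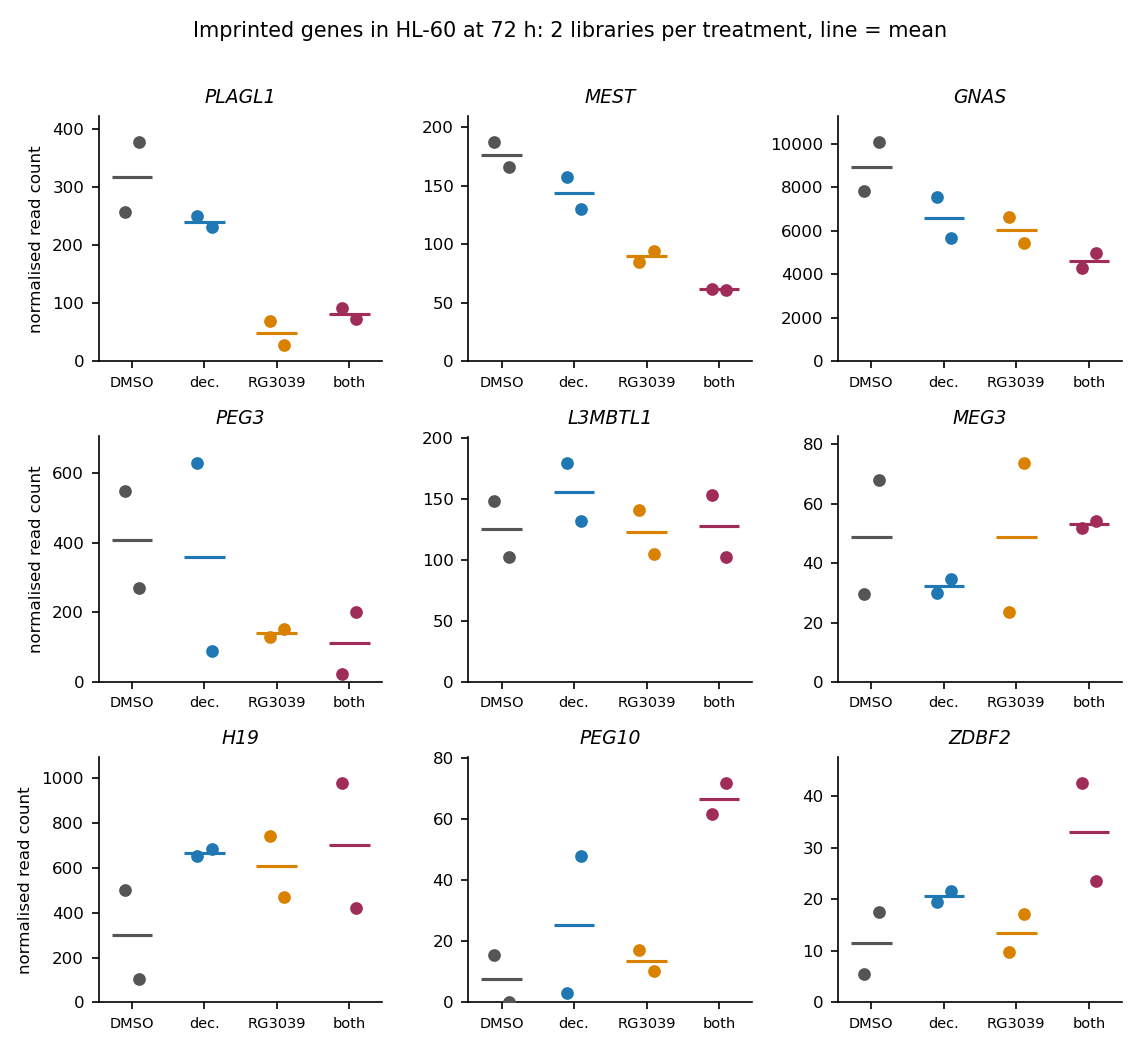
Normalised read count (vertical axis, linear, from 0) of 9 imprinted genes in each of the 8 libraries, by treatment (dec., decitabine; both, decitabine and RG3039). Points are libraries, bars their mean; PLAGL1 and MEST lie lower in all 4 libraries with RG3039 than in all 4 without, while the PEG3 and H19 libraries of 1 group lie far apart.

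PLAGL1 (chr6:143940300-144064599, minus strand; gene positions are those of GENCODE 29 on GRCh38) encodes a zinc finger transcription factor, also called ZAC1, that slows the cell cycle and favours apoptosis. Its normalised read counts were 256 and 377 in DMSO, 249 and 230 in decitabine, 69.2 and 28.6 in RG3039 and 91.1 and 73.1 in the combination. The 4 libraries with RG3039 lay at 28.6 to 91.1 and the 4 without at 230 to 377, with no overlap. MEST was the other of the 9 genes with this pattern, which 7.41% of all genes showed in this direction. RG3039 brought PLAGL1 to 0.146 of the DMSO level (95% interval 0.0762 to 0.281), a log2 change of -2.77 ± 0.42 (SE, n = 2 and 2; limma adjusted p = 0.0043). In the combination the change was -1.92 ± 0.42 (limma adjusted p = 0.0096).

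Decitabine alone left PLAGL1 at a log2 change of -0.37 ± 0.42, and PLAGL1 was 2.40 ± 0.42 higher in decitabine than in RG3039 (limma adjusted p = 0.013, 1 of 9 called, against 4.6% of all genes). The order of the means was DMSO, decitabine, combination, RG3039, and no 2 neighbours in it differed past the threshold. Both combination libraries lay above both RG3039 libraries, at a log2 difference of 0.86 ± 0.42 (limma adjusted p = 0.33). The combination was 1.54 ± 0.42 below decitabine (limma adjusted p = 0.057). The departure from the sum of the single-drug changes was 1.23 ± 0.59 on the log2 scale (limma adjusted p = 0.88). The combination call ended without DMSO replicate 2 (limma adjusted p = 0.072) and without combination replicate 2 (0.061). The difference between the single drugs lost its call without either decitabine library (limma adjusted p = 0.083 and 0.077), without RG3039 replicate 2 (0.060), and without the mean-variance trend (0.057). Of the 9 HL-60 markers, MPO, CTSG, AZU1 and PRTN3 were low in the same 4 libraries, with MPO at 69218 to 92757 against 121481 to 165580. CTSG, AZU1 and PRTN3 were also higher in both decitabine libraries than in DMSO, unlike PLAGL1. The other markers, ELANE, CEBPE, MS4A3, SPI1 and CD33, overlapped between the libraries with and without RG3039.

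MEST (chr7:130486171-130506465, plus strand) encodes a protein with an α/β hydrolase fold and was the steadiest of the 9 genes between wells, which differed more than those of only 2.84% of genes of like level. It had normalised read counts of 187 and 166 in DMSO, 158 and 130 in decitabine, 84.6 and 94.7 in RG3039 and 62.2 and 61.4 in the combination. No group overlapped another, and the levels went down in the order DMSO, decitabine, RG3039, combination. The combination stood at 0.354 of DMSO (95% interval 0.223 to 0.563), a log2 change of -1.50 ± 0.30 (limma adjusted p = 0.0063). It was also lower than decitabine, by -1.20 ± 0.30 (limma adjusted p = 0.042, the 1 gene of 9 called, against 7.33% of all genes). RG3039 alone gave -0.97 ± 0.30, which missed the threshold (limma adjusted p = 0.083), and decitabine alone -0.30 ± 0.30 (0.64). No neighbours in the order differed past the threshold. The difference from decitabine ended as a call without any 1 of the 8 libraries (limma adjusted p = 0.054 to 0.18), with no filter on low values (0.068) and in a fit of those groups alone (0.082).

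GNAS (chr20:58839718-58911192, plus strand) encodes the α subunit of the stimulatory G protein, which couples receptors to adenylyl cyclase. As background, that transcript is read from both copies in most tissues, whereas those for XLαs and NESP55 and the antisense GNAS-AS1 are imprinted. GNAS had normalised read counts of 7818 and 10069 in DMSO, 7564 and 5649 in decitabine, 6657 and 5423 in RG3039 and 4308 and 4967 in the combination. Every treated library lay below both DMSO libraries. The combination stood at 0.521 of DMSO (95% interval 0.386 to 0.704), a log2 change of -0.94 ± 0.19 (limma adjusted p = 0.0072). The single drugs gave -0.44 ± 0.19 (decitabine, limma adjusted p = 0.27) and -0.56 ± 0.19 (RG3039, 0.11). No neighbours in the order DMSO, decitabine, RG3039, combination differed past the threshold. The combination call ended without combination replicate 1 (limma adjusted p = 0.062) and without the mean-variance trend (0.055).

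**Figure D2:**
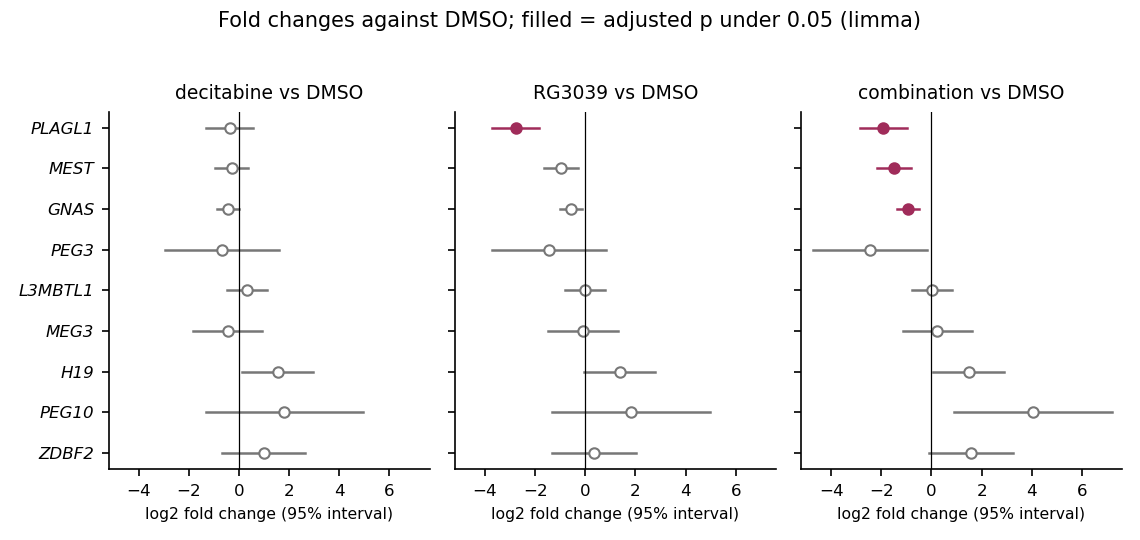
Log2 fold change against DMSO (horizontal axis) of the 9 tested imprinted genes under decitabine, RG3039 and the combination, with the 95% interval of limma as bars. Filled points have an adjusted p under 0.05: none under decitabine, PLAGL1 under RG3039, and PLAGL1, MEST and GNAS under the combination.

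PEG10 and ZDBF2 had their highest levels under the combination, without passing the threshold. PEG10 (chr7:94656325-94669695, plus strand) descends from the gag and pol genes of a retrotransposon. Its normalised read counts were 15.4 and 0 in DMSO, 3.16 and 47.7 in decitabine, 17.1 and 10.1 in RG3039 and 61.5 and 71.6 in the combination. Both combination libraries lay above the other 6, while 1 decitabine library was near the lowest and the other the third highest of all. The log2 change of the combination against DMSO was 4.06 ± 1.40 (95% interval 0.91 to 7.20; limma adjusted p = 0.064). A pseudocount of 5 (2.82, limma adjusted p = 0.047) or leaving out decitabine replicate 1 (0.042) brought it past the threshold. So did leaving out DMSO replicate 1 (0.017), which leaves 1 control listed at 0 whose spread is taken from the other groups, so no fold is given. Without DMSO replicate 2, the control listed at 0, the change was 2.04 (0.34). The PEG10 wells of 1 group differed more than those of 96.3% of genes of like level.

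ZDBF2 (chr2:206274663-206314438, plus strand) encodes a DBF4-type zinc finger protein. The ZDBF2 normalised read counts were 5.47 and 17.5 in DMSO, 19.5 and 21.6 in decitabine, 9.69 and 17.1 in RG3039 and 42.5 and 23.5 in the combination. Each of the 4 libraries with decitabine (19.5 to 42.5) lay above each of the 4 without (5.47 to 17.5). ZDBF2 alone of the 9 did so, and 5.09% of all genes did. The values rest on few reads, an estimated 7.21 to 51.0 per library. No contrast was called: decitabine gave a log2 change of 0.98 ± 0.74 (limma adjusted p = 0.53) and the combination 1.58 ± 0.74 (0.16).

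H19 and MEG3, the maternally expressed non-coding RNAs, showed no called change. H19 lies at chr11:1995176-2001470, minus strand. The H19 normalised read counts were 501 and 103 in DMSO, 651 and 686 in decitabine, 743 and 472 in RG3039 and 977 and 423 in the combination. The second DMSO library was the lowest by far, and the first lay within the range of the treated libraries. The log2 changes against DMSO were 1.55 ± 0.63 for decitabine, 1.37 ± 0.63 for RG3039 and 1.49 ± 0.63 for the combination (limma adjusted p = 0.24, 0.23 and 0.12). Without DMSO replicate 1, so with the low library as the only control, they were 2.68, 2.51 and 2.63 (limma adjusted p = 0.026, 0.019 and 0.0066), with the lone control assumed to vary like the other groups. The H19 wells of 1 group differed more than those of 98.6% of genes of like level.

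MEG3 (chr14:100779410-100861031, plus strand) is the maternal transcript of the DLK1 cluster on chromosome 14. Normalised read counts were 29.5 and 67.8 in DMSO, 30.01 and 34.7 in decitabine, 23.7 and 73.8 in RG3039 and 51.7 and 54.3 in the combination. The DMSO and RG3039 libraries spanned the values of the other groups, and the changes against DMSO ran from -0.46 ± 0.62 under decitabine to 0.24 ± 0.62 under the combination on the log2 scale.

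PEG3 (chr19:56810077-56840728, minus strand), a zinc finger protein gene, differed more between wells than the other 8 did when each was set against genes of like level. It had normalised read counts of 548 and 270 in DMSO, 631 and 89.5 in decitabine, 128 and 152 in RG3039 and 23.2 and 201 in the combination. Both libraries of RG3039 and of the combination lay below both DMSO libraries, while the decitabine libraries held the highest value of the 8 and the second lowest. The change under the combination was -2.46 ± 1.01 on the log2 scale (limma adjusted p = 0.11), and -3.99 without combination replicate 2 (0.027). The PEG3 wells of 1 group differed more than those of 99.2% of genes of like level.

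L3MBTL1 (chr20:43489442-43550950, plus strand), a reader of methylated histones in the region of chromosome 20 often deleted in myeloid disease, differed little between groups. Its normalised read counts were 148 and 102 in DMSO, 179 and 132 in decitabine, 141 and 105 in RG3039 and 153 and 102 in the combination. All 4 groups overlapped. The change under decitabine was 0.32 ± 0.35 on the log2 scale (95% interval -0.47 to 1.11) and that under the combination 0.02 ± 0.35 (-0.77 to 0.81). NNAT (chr20:37521206-37523693, plus strand), which encodes the brain proteolipid neuronatin, was at 0 in 7 libraries and at 0.702, the value of 1 read, in combination replicate 2, so it was not tested.

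The combination differed from RG3039 in none of the 9 genes (limma, 0 at an adjusted p under 0.05 and 0 at an unadjusted p under 0.05, against 2.28% of all genes called). The interaction, which is the departure of the combination from the sum of the single drugs, was called in none of the 9 genes and in 0% of all genes, with 0 of the 9 at an unadjusted p under 0.05 (limma). The intervals stay wide, from -0.55 to 0.68 on the log2 scale for GNAS and from -4.02 to 4.89 for PEG10.

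At the 3 loci with a called gene, some neighbours outside the imprinted domain were called as well, in both directions. At PLAGL1, HYMAI starts 56.3 kb inside the gene at its inner, imprinted start. HYMAI had normalised read counts of 29.5 and 48.3 in DMSO, 52.6 and 56.1 in decitabine, 37.6 and 43.8 in RG3039 and 36.6 and 66.7 in the combination. Its decitabine libraries lay above those of DMSO and RG3039 and the other groups overlapped, and its change was 0.10 ± 0.48 under RG3039 (limma adjusted p = 0.93), where PLAGL1 fell by 2.77 on the log2 scale. LTV1, a gene of ribosome maturation, fell by 0.76, 0.65 and 1.55 under decitabine, RG3039 and the combination (limma adjusted p = 0.047, 0.037 and 0.00024). The first call ended in 11 of 18 alternatives and the second in 10, with adjusted p up to 0.19 in each, among them the fits without any 1 of the 8 libraries other than DMSO replicate 1. SF3B5, a splicing factor gene 31.0 kb from the outer start, and PHACTR2 were not called against DMSO.

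At MEST, CEP41, a centrosomal protein gene that starts 43.7 kb away on the other strand, had normalised read counts of 1600 and 1406 in DMSO, 893 and 967 in decitabine, 641 and 405 in RG3039 and 449 and 357 in the combination. Its libraries took the same order of groups as those of MEST, except that RG3039 and the combination overlapped. It fell by 1.56 ± 0.24 under RG3039 and by 1.90 ± 0.24 under the combination (limma adjusted p = 0.0047 and 0.00064). COPG2, whose 3′ end overlaps that of MEST on the other strand, was at 0.00 ± 0.31 under the combination. How the counting treated strand is unknown from the labels, so reads of MEST and COPG2 in the overlap cannot be told apart. TSGA13 was not called, and MESTIT1 and KLF14 fell under the filter.

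At GNAS, NELFCD, a subunit gene of the negative elongation factor, fell by 1.36 ± 0.19 under the combination (limma adjusted p = 0.0011). CTSZ, the gene of the lysosomal protease cathepsin Z, rose by 1.18 ± 0.23 under RG3039 and 1.91 ± 0.23 under the combination (limma adjusted p = 0.015 and 0.00054), where the first call ended without any 1 of the 4 DMSO and RG3039 libraries (0.055 to 0.11) and without the mean-variance trend (0.081). Both lie downstream of GNAS, and they went opposite ways. STX16, which holds a control element of GNAS methylation, was at 0.16 ± 0.20 under the combination, NPEPL1 was not called against DMSO, and GNAS-AS1 fell under the filter. Over all 28 tested flanking genes of the 10 loci, 5 rose and 4 fell under the combination (32.1%, against 24.1% of all genes) and the median change was -0.01, against 0.04 over all genes. BEGAIN, a synaptic protein gene beside the MEG3 cluster, had 13.9 and 23.3 in DMSO and 41.9 and 46.4 in decitabine. It had 84.9 and 105 in RG3039 and 118 and 144 in the combination. BEGAIN rose by 2.33 ± 0.42 under RG3039 and by 2.78 under the combination (limma adjusted p = 0.0094 and 0.0015). The first call ended without RG3039 replicate 2, and the second held in all 18 alternatives.

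**Figure D3:**
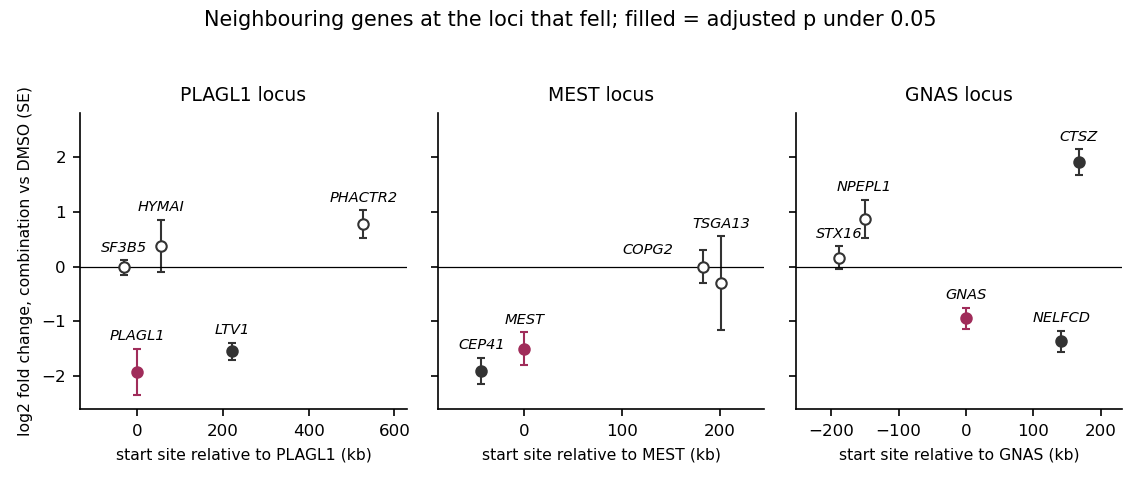
Log2 fold change of the combination against DMSO (vertical axis, bars are 1 SE) of each tested gene at the PLAGL1, MEST and GNAS loci, by the distance of its start from that of the imprinted gene, in kb in the direction of transcription. Filled points have an adjusted p under 0.05: PLAGL1 (-1.92), LTV1 (-1.55), CEP41 (-1.90), MEST (-1.50), GNAS (-0.94), NELFCD (-1.36) and CTSZ (1.91). HYMAI, not called, lies at 0.38.

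Of 21 partners in the same imprinted clusters in the table, 5 were at 0 in all libraries and 8 were tested. Under decitabine 7 of the 8 had a positive change, with a median of 0.53 on the log2 scale against 0.01 over all genes. Under the combination 7 of 8 did, with a median of 0.43 against 0.04. In each of these comparisons only 2 of the 8 had an unadjusted p under 0.05 (limma). DLK1, SGCE, GPR1, GPR1-AS and HYMAI had low means over the 8 libraries, from 12.8 to 46.4, where log2 changes rest on few reads. A rise of the partners as a set is therefore not shown. IGF2, the paternal partner of H19, had 1.35 in decitabine replicate 1 and 0 in the other 7 libraries. DLK1, the paternal partner of MEG3, lay between 0 and 22.9. The single call was ZNF264, a zinc finger gene of the PEG3 cluster, with 672 and 699 in DMSO, 1367 and 1177 in decitabine, 1059 and 809 in RG3039 and 1028 and 894 in the combination. It rose by 0.89 ± 0.19 under decitabine (limma adjusted p = 0.048, 1 of 8, against 2.14% of all genes), a call that ended in 12 of 18 alternatives, among them the fits without any 1 of the 8 libraries (adjusted p = 0.057 to 0.21), and all 6 treated libraries lay above both DMSO libraries. MEG8, of the MEG3 cluster, lay at 327 to 650 with no call.

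Among 31 other tested imprinted genes, of 45 in the table with 8 at 0 throughout, decitabine called none (8 at an unadjusted p under 0.05, limma). RG3039 raised 2 (6.45%, against 8.12% of all genes), and the combination raised 6 and lowered 1 (22.6%, against 24.1%), so the shares were near those of all genes. The median change under decitabine was 0.24, against 0.01 over all genes, with 20 of 31 positive, and under the combination 0.11, against 0.04. PHLDA2, a maternally expressed growth restrainer, had 77.2 and 28.7 in DMSO, 129 and 153 in decitabine, 281 and 216 in RG3039 and 432 and 444 in the combination, with no overlap between groups. It rose by 2.36 ± 0.42 under RG3039 and 3.19 ± 0.42 under the combination (limma adjusted p = 0.0092 and 0.00079), and the first call ended without RG3039 replicate 1 (0.075) and without the mean-variance trend (0.053).

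SLC22A18, a transporter gene beside it, had 26.7 and 20.3 in DMSO and 127 and 128 in the combination, a rise of 2.41 ± 0.42 (limma adjusted p = 0.0032). CDKN1C, the cyclin-dependent kinase inhibitor p57 of the same cluster, was singled out after its values were seen. It had 96.1 and 46.8 in DMSO, 250 and 106 in decitabine, 206 and 98.2 in RG3039 and 433 and 397 in the combination. The rise under the combination was 2.61 ± 0.51 (limma adjusted p = 0.0055). KCNQ1OT1, the non-coding RNA that as background silences these 3 genes on the paternal copy, lay at 739 and 856 in DMSO and 1091 and 1221 in the combination and was not called.

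WT1-AS, the antisense RNA of the WT1 gene, had 36.7 and 38.8 in DMSO, 2392 and 622 in decitabine, 1585 and 54.3 in RG3039 and 2459 and 400 in the combination. All 6 treated libraries lay above both DMSO libraries, with wells of 1 group far apart. Its log2 change was 4.98 ± 1.35 under decitabine (limma adjusted p = 0.094) and 4.68 ± 1.35 under the combination (0.033), a call that ended in 6 of 18 alternatives, among them the fits without either DMSO library (0.10 and 0.11) or combination replicate 1 (0.21). PAX8-AS1, another antisense RNA, had 29.9 and 2.78 in DMSO and 126 and 73.2 in the combination, a rise of 3.17 ± 0.96 (limma adjusted p = 0.040) that ended as a call in 10 of 18 alternatives, among them the fits without DMSO replicate 2 (0.22) or either combination library (0.19 and 0.091). Both were singled out after their values were seen.

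IGF2R, the receptor that carries IGF2 to lysosomes and is read from both copies in most people, had 1430 and 1539 in DMSO, 2011 and 1908 in decitabine, 3027 and 2931 in RG3039 and 4770 and 4938 in the combination. No group overlapped another. It rose by 1.01 ± 0.13 under RG3039 and 1.71 ± 0.13 under the combination (limma adjusted p = 0.0023 and 6.6e-05). The call under the combination that went down was DNMT1, which is imprinted in placenta. Against decitabine the combination also raised IGF2R and PHLDA2, by 1.31 ± 0.13 and 1.63 ± 0.42, and changed DNMT1 by -1.05 ± 0.22 (limma adjusted p = 0.0013, 0.046 and 0.023). These calls were 9.68% of the 31 genes, against 7.33% of all genes. The IGF2R call held in all 18 alternatives. The PHLDA2 call ended in 8 of 18 and the DNMT1 call in 4 of 18, both among them without the mean-variance trend (limma adjusted p = 0.13 and 0.12).

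**Figure D4:**
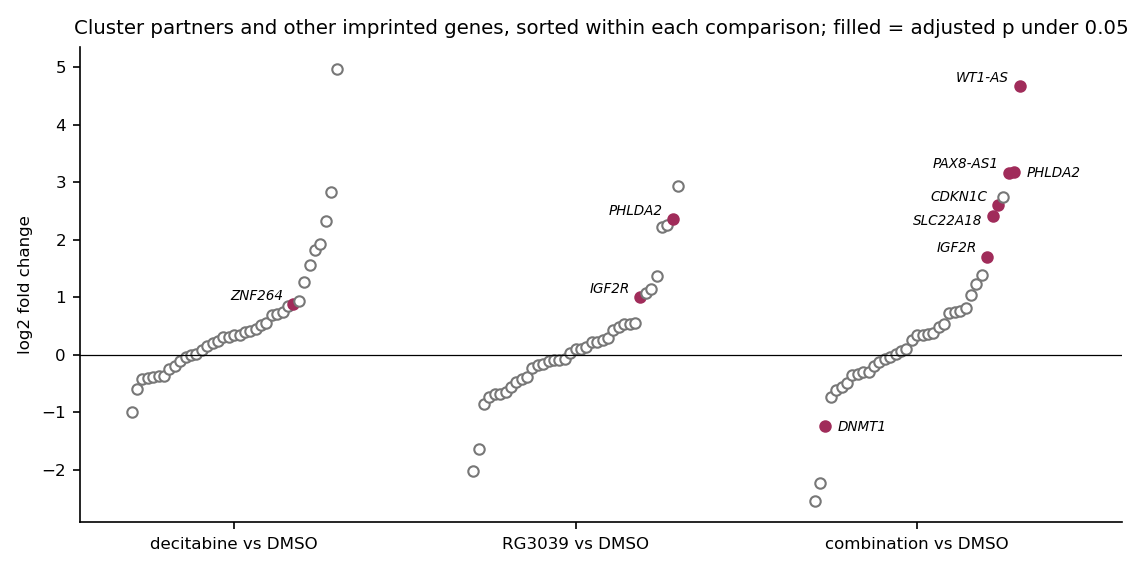
Log2 fold change against DMSO (vertical axis) of the 8 tested cluster partners and 31 other tested imprinted genes, each point a gene, sorted by value within each of the 3 comparisons. Filled points have an adjusted p under 0.05 and are named: ZNF264 under decitabine, IGF2R and PHLDA2 under RG3039, and 6 raised genes and DNMT1 under the combination.

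Of 17 tested factors that keep or erase the imprint, none was called under either single drug (limma, 2 under decitabine and 4 under RG3039 at an unadjusted p under 0.05), and the combination lowered 2 and raised 1 (17.6%, against 24.1% of all genes). DNMT1, the maintenance methyltransferase, had normalised read counts of 13815 and 11548 in DMSO, 13058 and 9427 in decitabine, 9522 and 6551 in RG3039 and 4843 and 5966 in the combination. The combination lay below every other library, at a log2 change of -1.23 ± 0.22 (limma adjusted p = 0.0037). UHRF1, which brings DNMT1 to half-methylated DNA, fell by 0.72 ± 0.17 (limma adjusted p = 0.015, and 0.070 to 0.082 without DMSO replicate 2 or either combination library, and 0.065 without the mean-variance trend). TET2, which oxidises methylated cytosine, rose by 0.96 ± 0.16 (limma adjusted p = 0.0026).

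Around GNAS, 36 genes of Gs and cyclic AMP signalling were tested. Decitabine raised 1 (2.78%, against 2.14% of all genes), and RG3039 raised 3 and lowered 2 (13.9%, against 8.12%). The combination raised 5 and lowered 5 (27.8%, against 24.1%), with a median change of -0.09. ADORA2A, a Gs-coupled adenosine receptor, had 154 and 105 in DMSO, 301 and 391 in decitabine, 526 and 523 in RG3039 and 926 and 824 in the combination. It rose in each comparison with DMSO, by 1.42, 2.04 and 2.77 ± 0.25 (limma adjusted p = 0.023, 0.0015 and 0.00012), and the decitabine call ended in 7 of 18 alternatives, among them the fits without DMSO replicate 2 (0.10) or either decitabine library (0.072 and 0.14). PRKACB, a catalytic subunit of protein kinase A, had 822 and 1071 in DMSO, 525 and 459 in decitabine, 310 and 269 in RG3039 and 177 and 218 in the combination.

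PRKACB fell by 1.70 ± 0.23 under RG3039 and 2.25 ± 0.23 under the combination (limma adjusted p = 0.0024 and 0.00021). The phosphodiesterase gene PDE7A fell by 1.54 ± 0.23 under RG3039, and PDE4B, another, rose by 1.25 ± 0.26 under RG3039 and 1.67 ± 0.26 under the combination (limma adjusted p = 0.0043, 0.019 and 0.0018). The PDE4B call under RG3039 ended without DMSO replicate 2 or either RG3039 library (0.085 to 0.11) and without the mean-variance trend (0.052).

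The genes whose log2 values followed the 4 imprinted genes of smallest F-test p most closely over the 8 libraries were picked as the highest of all tested genes, so the correlations are a description. The 8 points are 4 groups of 2 and share their libraries. For PLAGL1 they were CD99 (Pearson r 0.998), a surface glycoprotein gene, and PHC2 (0.997), a Polycomb subunit gene with 361 and 434 in DMSO and 207 and 134 in RG3039. For MEST they were KLHL23 (0.992) and ALKBH3 (0.989), a gene of alkylation repair. For GNAS they were DCUN1D5 (0.998) and WDR61 (0.986), and for PEG10 ADM2 (0.974) and LPIN2 (0.969).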

How the data were processed

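RNA of 8 HL-60 libraries (4 groups of 2) was read by single-end sequencing of QuantSeq 3′ FWD libraries, per the labels' protocols. What the authors deposited is a normalised read count for each gene, a signal with no raw counts beside it. STAR, featureCounts, Salmon 1.2.1, DESeq2, limma and hg38 are named in the submitters' processing notes, without the step that made the values. The median ratio to the per-gene geometric mean was 1.01 in each library. Of low values, 74.4% to 80.8% were whole multiples of the value of 1 read within a tolerance of 0.02, and of all values 45.6% to 49.9%, so no count test was run.

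Genes with a mean of at least 10 (17534 of 60240) were fitted as log2(value + 1) with limma 3.58.1 in R 4.3.3 (1 mean per group, eBayes with trend, 4 residual and 5.51 prior degrees of freedom). The 6 pairwise contrasts and the interaction were tested two-sided, with Benjamini-Hochberg adjustment over all genes within a contrast and a threshold of 0.05. The median standard error of a pairwise log2 change was 0.322. The comparisons with DMSO share its 2 libraries. The fit was tested on simulated data. Spread percentiles set each gene's pooled within-group SD against tested genes of like mean.

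The members and the 7 other gene lists (187 symbols in all) were chosen with earlier results of these data known. Named were all 10 members; from the other lists the called genes, at most 4 per contrast by smallest p, here for the comparisons with DMSO; tested genes at the loci of called members; and for the 4 members of smallest F-test p the 2 genes of highest correlation. IGF2, DLK1, MEG8, KCNQ1OT1, CDKN1C, WT1-AS and PAX8-AS1 lie outside this rule and were named after their values were seen. A gene within the rule is not reported here. Gene models are from GENCODE 29 (58064 identifiers matched). Python 3.11.15, pandas 2.3.3 and matplotlib 3.10.9 were used. Alternatives were TMM and quantile scaling, other pseudocounts and filters, eBayes without trend or robust, only the groups compared, a replicate block, and leaving out each library.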

Additional observations from a re-analysis of the deposited data

How the results depend on the processing

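The changes of the imprinted genes and of the other named genes, and the counts of calls, were recomputed under 18 alternatives per pairwise contrast (17 for genes with a mean under 50). No called imprinted gene changed direction. The calls of MEST in the combination and of PLAGL1 in RG3039, both against DMSO, passed in all of them. Counts of called genes moved by over 1.5 times as follows. Without 1 library at a time the count was 0 to 1 for decitabine against DMSO, 1 to 2 for RG3039 against DMSO, 2 to 5 for the combination against DMSO, 0 to 1 for the combination against decitabine and 0 to 1 for decitabine against RG3039. For the combination against decitabine it was 2 under quantile scaling, a pseudocount of 5, a mean of at least 50 and robust eBayes, where PLAGL1 joined MEST, and 0 with no filter. Without either RG3039 library, and in a fit of only the groups compared, the 1 gene called was PLAGL1 (adjusted p = 0.030, 0.026 and 0.025) in place of MEST. For decitabine against RG3039 it was 0 without the mean-variance trend. Of 1104 values of the 9 imprinted genes, 1071 kept their side of the threshold, 18 lost a call and 15 gained one, and 49 uncalled ones took the other sign.

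Samples with the same replicate number deviated together weakly at most: the correlation of their deviations was -0.08 to 0.16. These correlations do not settle whether the samples share more than a number. Among all alternatives, a block on that number gave the most calls over all genes in each pairwise contrast. With the number as a replicate block the counts were 0, 1 and 4 against DMSO (decitabine, RG3039, combination, where H19 joined at an adjusted p of 0.038), 1 for the combination against decitabine, 0 against RG3039, 1 for decitabine against RG3039 and 0 for the interaction. Over all genes, the count called moved from 376 to between 79 and 525 for decitabine against DMSO, from 1424 to between 505 and 1690 for RG3039, and from 4221 to between 2154 and 4619 for the combination. From 1286 it moved to between 319 and 1678 for the combination against decitabine, from 399 to between 22 and 688 against RG3039, and from 806 to between 283 and 973 for decitabine against RG3039. The interaction called 0 to 2 genes. Of 40 calls of other named genes against DMSO, 22 held in every alternative, 18 were lost in at least 1 and none changed sign. Under the combination the calls moved from 7 to between 5 and 10 for the other imprinted genes, from 9 to between 6 and 10 for flanking genes, from 3 to between 2 and 5 for maintenance factors, from 10 to between 7 and 13 for cyclic AMP genes and from 4 to between 2 and 5 for MBT genes. Under RG3039 they moved from 2 to between 1 and 3, from 4 to between 1 and 5, from 0 to between 0 and 2, from 5 to between 3 and 6 and from 1 to between 0 and 1. With 2 libraries a group, changes of genes with wide spread (PEG3, H19, PEG10) are not resolved.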

Other observations

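PEG10 belongs to a family of genes derived from retrotransposon gag, of which 6 of 15 in the table were tested. Decitabine called 1 (16.7%, against 2.14% of all genes), RG3039 1 (16.7%, against 8.12%) and the combination 2 (33.3%, against 24.1%). RTL8C, an X-linked relative, had normalised read counts of 22.7 and 12.1 in DMSO, 86.3 and 88.4 in decitabine, 114 and 74.0 in RG3039 and 161 and 182 in the combination. It rose by 2.33, 2.40 and 3.29 on the log2 scale, each ± 0.42 (SE, limma adjusted p = 0.025, 0.0087 and 0.00068). The decitabine call ended in 8 of 18 alternatives, among them the fits without DMSO replicate 2 (0.12) or either decitabine library (0.13 each), and the RG3039 call without RG3039 replicate 1 (0.076). All 6 treated libraries lay above both DMSO libraries. ASPRV1, a skin protease gene of the same origin, had 2.27 and 7.55 in DMSO, 6.74 and 36.4 in decitabine, 5.37 and 7.96 in RG3039 and 43.3 and 40.7 in the combination, a rise of 3.02 ± 0.93 (limma adjusted p = 0.042) that ended as a call in 9 of 17 alternatives, among them the fits without either DMSO library (0.17 and 0.055) or either combination library (0.17 and 0.14). The counts of RTL8C may hold reads of its near-identical copies RTL8A and RTL8B.

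L3MBTL1 has MBT domains, which bind methylated histones, and 9 other genes with such domains were tested. Under the combination 3 fell and 1 rose (44.4%, against 24.1% of all genes). SCMH1, a Polycomb-associated gene, had 702 and 444 in DMSO, 637 and 619 in decitabine, 305 and 235 in RG3039 and 227 and 211 in the combination. It fell by 1.06 ± 0.26 under RG3039 and 1.35 ± 0.26 under the combination (limma adjusted p = 0.037, which ended in 10 of 18 alternatives, 0.20 at most without RG3039 replicate 2, and 0.0054), and its 4 libraries with RG3039 lay below the 4 without. MBTD1 and L3MBTL2 fell by 1.88 ± 0.41 and 0.67 ± 0.15 under the combination (limma adjusted p = 0.0099 and 0.011), and each call ended in 3 of 18 alternatives (up to 0.071 and 0.080). L3MBTL3 rose by 1.02 ± 0.33 (limma adjusted p = 0.0496), a call that ended in 11 of 18 alternatives, 0.34 at most without combination replicate 1, with 609 and 321 in the combination against 214 and 221 in DMSO.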
